A study of Mus musculus with 12 samples.

Results

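Oocyte transcripts are the messenger RNAs made by the egg cell itself, and here they were followed through preparations of granulosa cells, which line the ovarian follicle and nourish the egg. A list of 37 oocyte genes was used, and each gene was read from the probe sets that the array annotation assigns to it alone, with the probe set of largest SD over the 12 arrays where there were several. Of the 37 genes 34 were measured, among 18193 genes in all; Npm2, Oas1d and Fbxw15 had no single-gene probe set and were not analysed here. The mice were 21 days old, of mixed C57BL/6J;129S5/SvEvBrd background, and either lacked Inha, which encodes the inhibin alpha subunit (Inha-/-), or were wild type. All received 5 IU of PMSG, a gonadotropin that acts like follicle-stimulating hormone, for 44 to 46 hours, and part of them then received 5 IU of hCG, which acts like the ovulatory surge of luteinizing hormone, for 6 hours. The 4 groups of 3 arrays each were Inha-/- after PMSG, wild type after PMSG, Inha-/- after PMSG and hCG, and wild type after PMSG and hCG. In the knockout Inha is missing from every cell of the animal, and no group received vehicle alone. Whether cells of several animals were pooled for an array is not given in the sources used here.

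A growing oocyte stores a large stock of messages and proteins for fertilization and the first cleavages. It builds the zona pellucida, its glycoprotein coat, and secretes growth factors such as GDF9 and BMP15 that act on the granulosa cells around it. Oocyte transcription factors such as FIGLA, NOBOX, SOHLH1 and LHX8 drive this programme, and the subcortical maternal complex gathers under the oocyte membrane and is needed for early cleavage in the mouse. Granulosa cells were collected by puncturing antral follicles, each of which holds an oocyte within its cumulus cells, so oocyte messages in these samples bear on how much oocyte RNA came along. In such bulk samples more oocytes in the preparation and more of a message per oocyte cannot be told apart.

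The deposited values are log2 values that are centred on each probe set's median over the 12 arrays. They give differences between arrays for one gene and no level, so no gene's abundance is compared with another's. Inha itself, the check of the labels, lay between -7.40 and -5.40 on the 6 Inha-/- arrays and between 5.40 and 5.87 on the 6 wild-type arrays, a log2 fold change of -12.60 (limma, Benjamini-Hochberg adjusted p = 1.278e-07). Array medians over all probe sets lay between -0.020 and 0.093. The SD of the values on an array lay between 0.371 and 0.727 and was highest on replicate 3 of wild type after hCG. The labels call the samples independent triplicates without naming animals, so p-values measure the spread between these samples. The precision is limited by the 3 arrays of a group.

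Averaged over both treatments 17 of the 34 measured genes rose in Inha-/- cells and 0 fell at an adjusted p under 0.05, where 8.88% of all 18193 genes rose. The zona genes, Gdf9, Oosp1, 4 genes of the subcortical maternal complex, Nlrp14, Nlrp4f, Dppa3, H1f8, Bcl2l10, Tcl1, Btg4 and Zar1 make up the 17. The median log2 fold change of the 34 genes was 1.68, against 0.025 over all genes. A positive change was seen for 32 of the 34, against 11643 of all 18193 genes. After hCG the same 17 genes rose and 0 fell, against 8% of all genes that rose, with a median of 2.17. After PMSG alone 4 rose (Zp2, Gdf9, Bcl2l10 and Dppa3) and 0 fell, against 1.79% of all genes that rose, with a median of 1.17 and 15 genes at an unadjusted p under 0.05. That median was 0.72 without replicate 2 of Inha-/- after PMSG. The count after PMSG was 0 when replicate 2 or 3 of either genotype after PMSG was left out. It was 1 without replicate 1 of wild type after PMSG or any of the wild-type arrays after hCG, 2 without replicate 3 of Inha-/- after hCG, and 10 without replicate 1 of that group. Across 21 alternatives the call after PMSG was lost in 6 for Bcl2l10, 10 for Dppa3, 13 for Zp2 and 14 for Gdf9. The count after hCG was 10 without replicate 2 or 3 of either genotype after hCG and 23 without replicate 1 of Inha-/-. Over 20 alternatives the call after hCG was lost in 15 for Nlrp5, 11 for Nlrp4f, 8 for Btg4, 7 each for Padi6 and Tcl1, 6 for Oosp1, 5 for Nlrp14 and 1 each for H1f8 (the number in the array names as a random block) and Zar1 (only the groups of the contrast).

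Every array of the Inha-/- group lay above every wild-type array for 24 of the 34 genes after PMSG, where 11% of all genes showed this. After hCG it was so for 23 genes, against 15.6% of all genes, and Uchl1 alone lay the other way. Over both treatments 19 of the 34 genes had all 6 Inha-/- arrays above all 6 wild-type arrays, against 4.03% of all genes. Of the 17 genes that rose over both treatments 16 showed this separation, with Tle6 the exception. Where 6 arrays lie above 6, centring makes the lowest Inha-/- value and the highest wild-type value mirror images of each other.

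**Figure D1:**
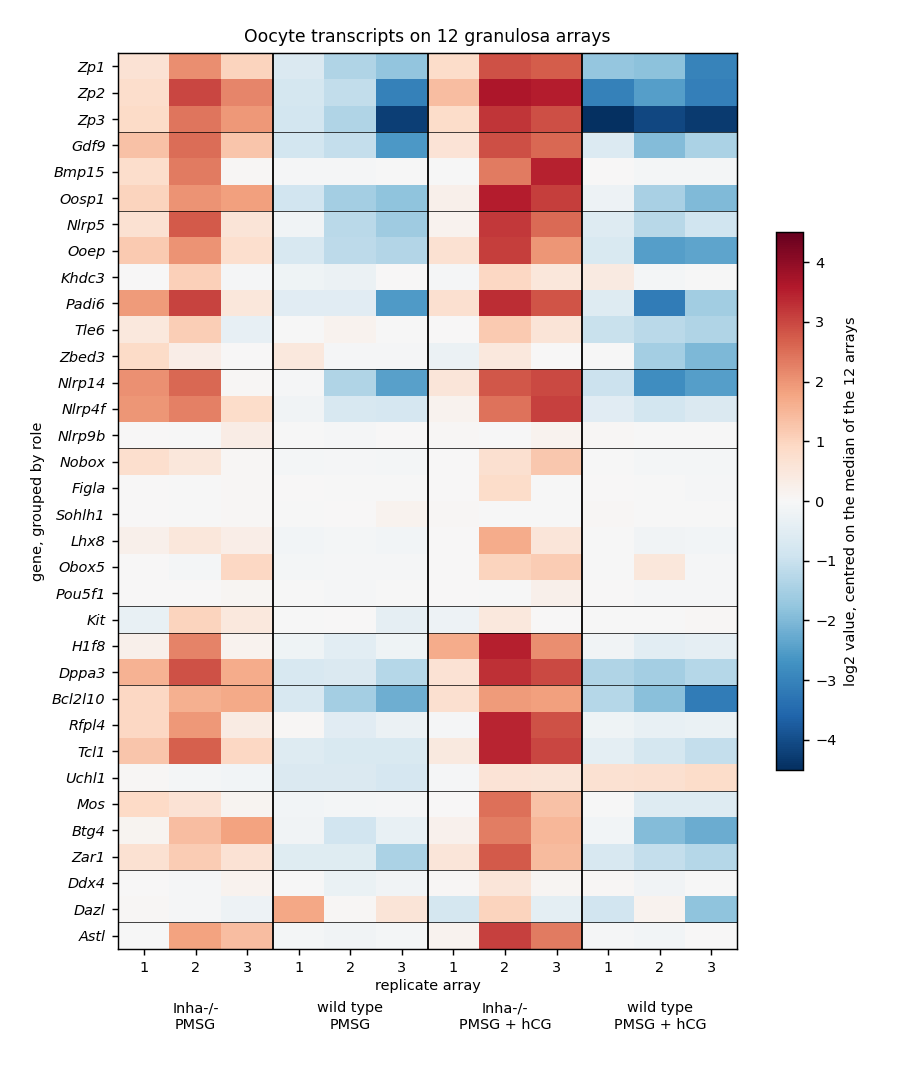
Centred log2 values of the 34 measured oocyte genes (rows, grouped by role) on the 12 arrays (columns, by group and replicate). Inha-/- arrays are mostly above the gene's median and wild-type arrays mostly below it. Dazl, Kit and Sohlh1 are among the genes that do not follow this order.

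Promoters of some of the genes are shown because FIGLA binds E-boxes, motifs of the form CANNTG, in the promoters of mouse zona genes. The sequences are from RefSeq on build GRCm38.p6, run 5′ to 3′ along the gene from 250 bases before the start to 50 after it, and have every CANNTG in capitals. Zp3 (chr5:135979855-135980154 on the plus strand), Oosp1 (chr19:11691002-11691301 on the minus strand) and Zar1 (chr5:72581035-72581334 on the minus strand) rose. Sohlh1 (chr2:25847199-25847498 on the minus strand) and Uchl1 (chr5:66675871-66676170 on the plus strand) did not pass the test of genotype over both treatments.
Zp3: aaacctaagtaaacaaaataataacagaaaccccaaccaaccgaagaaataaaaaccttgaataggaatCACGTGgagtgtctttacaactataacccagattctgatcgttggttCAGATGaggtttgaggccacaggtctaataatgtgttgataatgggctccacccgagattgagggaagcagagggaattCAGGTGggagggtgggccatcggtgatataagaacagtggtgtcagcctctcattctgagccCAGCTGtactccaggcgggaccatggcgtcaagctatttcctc
Oosp1: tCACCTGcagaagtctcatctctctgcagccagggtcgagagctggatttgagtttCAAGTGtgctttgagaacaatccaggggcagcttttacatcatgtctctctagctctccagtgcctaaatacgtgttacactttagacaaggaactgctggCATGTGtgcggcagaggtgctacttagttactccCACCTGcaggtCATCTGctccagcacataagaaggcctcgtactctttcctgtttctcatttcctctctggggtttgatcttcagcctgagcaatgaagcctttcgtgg
Zar1: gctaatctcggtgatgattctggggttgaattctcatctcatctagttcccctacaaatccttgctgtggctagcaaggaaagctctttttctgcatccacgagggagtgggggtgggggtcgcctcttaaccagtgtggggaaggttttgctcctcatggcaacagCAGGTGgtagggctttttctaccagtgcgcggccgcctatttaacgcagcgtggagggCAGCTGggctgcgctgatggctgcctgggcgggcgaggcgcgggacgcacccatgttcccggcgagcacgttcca
Sohlh1: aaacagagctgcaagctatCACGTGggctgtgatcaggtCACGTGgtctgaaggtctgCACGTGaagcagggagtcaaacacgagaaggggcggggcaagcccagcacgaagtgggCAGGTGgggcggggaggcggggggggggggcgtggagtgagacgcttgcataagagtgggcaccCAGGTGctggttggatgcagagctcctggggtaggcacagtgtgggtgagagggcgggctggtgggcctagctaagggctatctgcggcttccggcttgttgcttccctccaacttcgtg
Uchl1: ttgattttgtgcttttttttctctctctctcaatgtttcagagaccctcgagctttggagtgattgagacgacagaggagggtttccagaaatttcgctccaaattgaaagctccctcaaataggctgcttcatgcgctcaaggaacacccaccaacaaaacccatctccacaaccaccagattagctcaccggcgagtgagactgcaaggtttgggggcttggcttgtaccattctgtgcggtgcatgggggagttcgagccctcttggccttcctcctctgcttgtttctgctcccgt

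The Zp3 promoter holds CACGTG at 181, CAGATG at 134 and CAGGTG at 55 bases before the start, and CAGCTG just after it. Oosp1 has 5 matches to CANNTG and Zar1 has 2. The promoter of Ooep, which rose and is not printed here, has 1 match to CANNTG and 1 to TAATTG, a motif described below. Sohlh1 has 5 matches to CANNTG and Uchl1 has 0. The SD of Sohlh1 over the 12 arrays was 0.055, and whether its message lies above background is not known. Whether the number of matches bears on the genotype differences was not tested. CANNTG reads the same on both strands. It was found in 31 of the 34 promoters listed for 27 of the measured genes (91.2%), against 72.3% of the 32851 promoters of the table. These shares do not include Zp1, Zp2, Gdf9, Nlrp14, Bcl2l10, Mos and Dppa3. TAATTG and TAATTA, the core motifs that NOBOX binds, were searched on both strands and found in 8.82% and 5.88% of the 34 promoters, against 8.0% and 5.29% of all. Such a match is a run of letters and no evidence of binding.

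The 3 zona pellucida genes rose over both treatments, and after hCG they had the largest log2 fold changes of the 34 genes. They encode the glycoproteins of the egg coat, of which ZP2 and ZP3 take part in sperm binding. Zp3 stood at 0.86, 2.41 and 1.96 in Inha-/- cells after PMSG, against -0.84, -1.36 and -4.22 in wild-type cells. After hCG it stood at 0.84, 3.23 and 2.89 in Inha-/- cells, against -4.48, -4.11 and -4.30 in wild-type cells. All Inha-/- arrays lay above all wild-type arrays, and replicates 1 and 2 of wild type after PMSG lay well above the other 4 wild-type arrays. The log2 fold change of Zp3 was 6.61 ± 0.90 after hCG (SE, limma with Benjamini-Hochberg adjusted p = 0.00166), a 97.8-fold difference. After PMSG it was 3.88 ± 0.90 and missed the threshold (adjusted p = 0.0506).

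Zp2 had values of 0.80, 2.997 and 2.19 in Inha-/- cells after PMSG, against -0.80, -1.09 and -3.05 in wild-type cells. Its values after hCG were 1.40, 3.63 and 3.53 in Inha-/- cells, against -3.05, -2.49 and -3.07 in wild-type cells. The groups did not overlap in either treatment, and replicate 1 was the lowest Inha-/- array in both. The log2 fold change was 3.65 ± 0.80 after PMSG (SE, adjusted p = 0.0413) and 5.72 ± 0.80 after hCG (adjusted p = 0.0018). Zp1, whose product cross-links the filaments of the coat, had 0.66, 2.07 and 1.01 in Inha-/- cells after PMSG, against -0.66, -1.35 and -1.78 in wild-type cells. After hCG Zp1 had 0.83, 2.85 and 2.73 in Inha-/- cells, against -1.75, -1.83 and -3.01 in wild-type cells. Zp1 followed the same order of arrays in Inha-/- cells as Zp2, with replicate 1 lowest and replicate 2 highest. It rose after hCG (log2 fold change 4.34 ± 0.62, adjusted p = 0.00198), and after PMSG the change was 2.51 ± 0.62 (adjusted p = 0.0617).

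Among the secreted proteins 2 of 3 rose over both treatments. Gdf9, a TGF-beta family growth factor that promotes granulosa cell growth and cumulus expansion, had 1.32, 2.53 and 1.26 in Inha-/- cells after PMSG, against -0.82, -1.06 and -2.57 in wild-type cells. Its values after hCG were 0.61, 2.90 and 2.58 in Inha-/- cells, against -0.61, -1.94 and -1.44 in wild-type cells. The groups were separate in both treatments, with a gap after hCG that rested on replicate 1 of each genotype. Gdf9 rose by a log2 fold change of 3.19 ± 0.70 after PMSG (SE, adjusted p = 0.0424) and of 3.36 ± 0.70 after hCG (adjusted p = 0.0123). Oosp1, an oocyte-secreted protein, had 0.99, 2.02 and 1.84 in Inha-/- cells after PMSG, against -0.87, -1.52 and -1.82 in wild-type cells. After hCG Oosp1 had 0.23, 3.53 and 3.10 in Inha-/- cells, against -0.23, -1.46 and -1.97 in wild-type cells. Replicate 1 of Inha-/- after hCG was again far below the other 2 arrays of its group. Oosp1 rose after hCG by 3.51 ± 0.81 on the log2 scale (adjusted p = 0.0198), and the change after PMSG was 3.02 ± 0.81 (adjusted p = 0.0854).

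Bmp15, the other oocyte growth factor, behaved unevenly between arrays. Its values were 0.80, 2.34 and 0.043 in Inha-/- cells after PMSG, against -0.036, -0.036 and -0.013 in wild-type cells. After hCG they were -0.0057, 2.34 and 3.47 in Inha-/- cells, against 0.0057, -0.080 and -0.074 in wild-type cells. The 6 wild-type arrays spanned 0.085, while 3 of the Inha-/- arrays lay above 2, and replicate 1 after hCG and replicate 3 after PMSG lay near the wild type. The log2 fold change of Bmp15 was 1.09 ± 0.81 after PMSG (adjusted p = 0.642) and 1.98 ± 0.81 after hCG (adjusted p = 0.157). Its other probe sets gave 1.17 after PMSG and 1.90 after hCG in one case and 0.15 and -0.014 in the other. Astl, the protease ovastacin that trims ZP2 after fertilization, had -0.014, 1.82 and 1.39 in Inha-/- cells after PMSG, against -0.090, -0.14 and -0.080 in wild-type cells. After hCG Astl had 0.16, 3.07 and 2.32 in Inha-/- cells, against -0.058, -0.11 and 0.014 in wild-type cells. Here replicate 1 was the low Inha-/- array in both treatments, and the difference over both treatments did not pass (log2 fold change 1.53 ± 0.48, adjusted p = 0.0605).

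**Figure D2:**
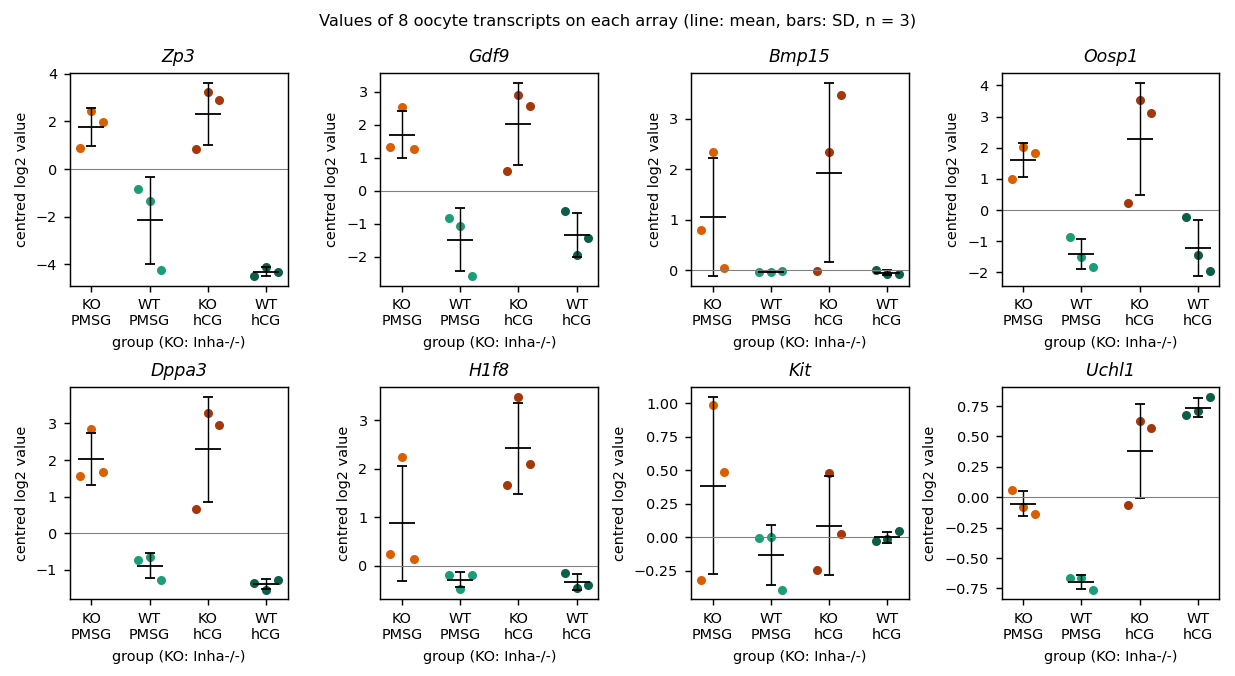
Centred log2 values of 8 oocyte genes on each array (points), by group with the mean (line) and SD (bars, n = 3). Zp3, Gdf9, Oosp1, Dppa3 and H1f8 are separated by genotype in both treatments, Bmp15 is high on only some Inha-/- arrays, Kit overlaps, and Uchl1 lies above wild type after PMSG and below it after hCG in the Inha-/- groups.

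Of the 6 measured genes tied to the subcortical maternal complex 4 rose over both treatments (Nlrp5, Ooep, Padi6 and Tle6). Nlrp5, also called Mater, had 0.70, 2.77 and 0.58 in Inha-/- cells after PMSG, against -0.16, -1.22 and -1.59 in wild-type cells. After hCG its values were 0.16, 3.20 and 2.56 in Inha-/- cells, against -0.59, -1.26 and -0.88 in wild-type cells. Replicate 2 was the highest Inha-/- array in both treatments and no wild-type array reached an Inha-/- one. Nlrp5 passed narrowly after hCG (log2 fold change 2.88 ± 0.83, adjusted p = 0.0486) and not after PMSG (2.34 ± 0.83, adjusted p = 0.196). Ooep, an RNA-binding member of the complex, had 1.19, 2.00 and 0.76 in Inha-/- cells after PMSG, against -0.72, -1.17 and -1.33 in wild-type cells. After hCG Ooep had 0.68, 3.12 and 1.97 in Inha-/- cells, against -0.68, -2.48 and -2.39 in wild-type cells. Replicate 1 was the nearest to the other genotype on both sides after hCG. Ooep rose after hCG (log2 fold change 3.77 ± 0.66, adjusted p = 0.00532), and after PMSG the change was 2.39 ± 0.66 (adjusted p = 0.0931).

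Padi6, a peptidylarginine deiminase family protein of the oocyte lattices, had 1.93, 3.04 and 0.50 in Inha-/- cells after PMSG, against -0.50, -0.50 and -2.56 in wild-type cells. After hCG Padi6 had 0.73, 3.33 and 2.84 in Inha-/- cells, against -0.59, -3.13 and -1.55 in wild-type cells. No arrays overlapped between genotypes, although the gap was narrower than the spread within each group. Padi6 had the largest change of the complex over both treatments, 3.53 ± 0.69 on the log2 scale (adjusted p = 0.00754). Tle6, a corepressor-like member, had 0.48, 1.11 and -0.36 in Inha-/- cells after PMSG, against -0.0097, 0.17 and -0.025 in wild-type cells. After hCG Tle6 had 0.0097, 1.18 and 0.58 in Inha-/- cells, against -1.02, -1.22 and -1.37 in wild-type cells. The genotypes overlapped after PMSG and were separate after hCG, where the wild-type arrays were the low ones. Its log2 fold change was 1.79 ± 0.37 after hCG (adjusted p = 0.0114) and 0.36 ± 0.37 after PMSG (adjusted p = 0.705). The call over both treatments (1.08 ± 0.26, adjusted p = 0.0205) was lost without replicate 3 of wild type after hCG.

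Khdc3 and Zbed3 did not pass in any of the contrasts of genotype. Khdc3, a component of the complex also known as Filia, had the smallest change of the complex over both treatments. It stood at 0.025, 1.08 and -0.053 in Inha-/- cells after PMSG, against -0.19, -0.27 and 0.0019 in wild-type cells. After hCG it stood at -0.052, 0.94 and 0.52 in Inha-/- cells, against 0.42, -0.080 and -0.0019 in wild-type cells. Replicate 2 alone stood out in Inha-/- cells after PMSG, and the genotypes overlapped in both treatments. The log2 fold change over both treatments was 0.43 ± 0.23 for Khdc3 (adjusted p = 0.296) and 0.76 ± 0.33 for Zbed3 (adjusted p = 0.179). Zbed3 stood at -1.52 and -2.02 on replicates 2 and 3 of wild type after hCG and lay between -0.26 and 0.85 on the other 10 arrays. Its other probe sets gave changes of 0.077, 0.21 and 0.55 after PMSG and -0.042, 0.40 and 1.59 after hCG, where the one used gave 0.26 and 1.26.

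In the NLRP family outside the complex 2 of 3 genes rose over both treatments. Nlrp14 had 2.07, 2.58 and 0.068 in Inha-/- cells after PMSG, against -0.068, -1.35 and -2.44 in wild-type cells. After hCG Nlrp14 had 0.54, 2.80 and 2.97 in Inha-/- cells, against -0.98, -2.78 and -2.47 in wild-type cells. A single array of each genotype after PMSG, replicate 3 of Inha-/- and replicate 1 of wild type, met near the median. Nlrp14 rose after hCG by 4.18 ± 0.92 on the log2 scale (SE, adjusted p = 0.0162). Nlrp4f had 1.99, 2.28 and 0.84 in Inha-/- cells after PMSG, against -0.14, -0.73 and -0.75 in wild-type cells. After hCG Nlrp4f had 0.14, 2.45 and 3.08 in Inha-/- cells, against -0.50, -0.82 and -0.65 in wild-type cells. Its wild-type values were close together, and the Inha-/- values spread over a wider range. Nlrp4f rose after hCG by 2.55 ± 0.67 (adjusted p = 0.0347). Nlrp9b stayed between -0.043 and 0.33 on all 12 arrays, with a log2 fold change of 0.093 ± 0.064 over both treatments (adjusted p = 0.462).

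**Figure D3:**
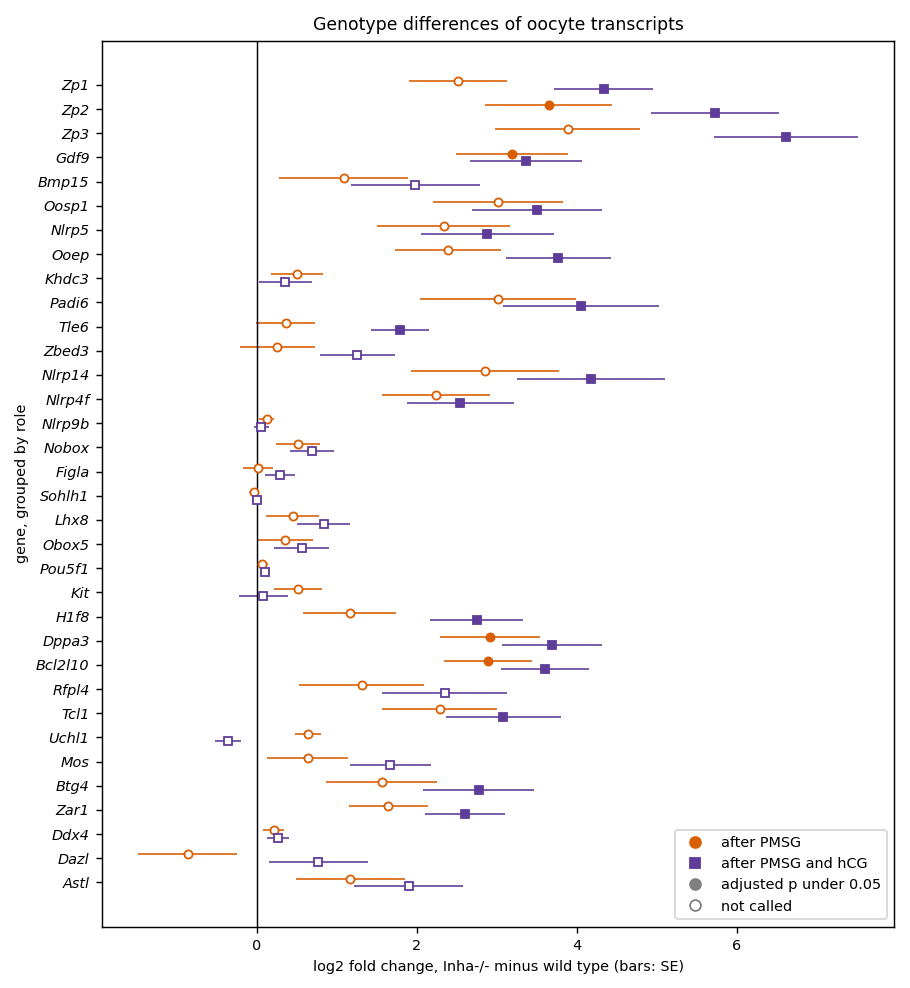
Log2 fold change of each oocyte gene, Inha-/- minus wild type, after PMSG (circles) and after PMSG and hCG (squares), with the SE as bars and filled symbols for an adjusted p under 0.05. After hCG the zona genes are farthest to the right and Lhx8, at 0.84, is the highest of the transcription factors. Changes below 0 are those of Uchl1 after hCG (-0.36) and of Dazl (-0.86) and Sohlh1 (-0.033) after PMSG.

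None of the 6 measured transcription factors passed over both treatments, and 2 of them had an unadjusted p under 0.05. Lhx8, a LIM homeobox factor of early follicles, had the largest change of this group. Its values were 0.22, 0.52 and 0.29 in Inha-/- cells after PMSG, against -0.12, -0.080 and -0.11 in wild-type cells. After hCG they were 0.019, 1.67 and 0.55 in Inha-/- cells, against -0.019, -0.15 and -0.11 in wild-type cells. The genotypes did not overlap although the change did not pass (0.64 ± 0.23 over both treatments, adjusted p = 0.0994). Nobox, a homeobox factor that drives many oocyte genes, was also separate by genotype, between 0.0018 and 1.20 on the Inha-/- arrays and between -0.091 and -0.0018 on the wild-type arrays, with a change of 0.61 ± 0.19 (adjusted p = 0.0634). Figla, the basic helix-loop-helix factor that activates the zona genes, lay above 0.1 on 1 array only, replicate 2 of Inha-/- after hCG with 0.83. Its log2 fold change was 0.022 after PMSG (adjusted p = 0.956) and 0.29 after hCG (adjusted p = 0.446).

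Sohlh1, a factor of primordial follicles, had the smallest change among the transcription factors. It lay at 0.028, -0.0082 and 0.057 in Inha-/- cells after PMSG, against -0.0031, 0.0031 and 0.17 in wild-type cells. After hCG it lay at 0.059, -0.011 and -0.011 in Inha-/- cells, against 0.052, -0.014 and -0.0088 in wild-type cells. No group stood apart. The changes of Obox5, an oocyte homeobox gene, and of Pou5f1, the pluripotency factor OCT4, were 0.46 ± 0.24 (adjusted p = 0.278) and 0.090 ± 0.048 (adjusted p = 0.291) over both treatments. Sohlh1, Pou5f1 and Nlrp9b were the 3 measured genes whose SD over the arrays was below that of the upper 60% of probe sets.

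Kit, the receptor on the oocyte for the Kit ligand of granulosa cells, had -0.32, 0.99 and 0.49 in Inha-/- cells after PMSG, against -0.0045, 0.0045 and -0.39 in wild-type cells. After hCG Kit had -0.25, 0.48 and 0.028 in Inha-/- cells, against -0.026, -0.015 and 0.050 in wild-type cells. The genotypes overlapped in both treatments. Its log2 fold change over both treatments was 0.30 ± 0.21 (adjusted p = 0.477), and Kit is also made by cells other than oocytes. The second probe set of Kit gave changes of 0.097 after PMSG and 0.61 after hCG, where the one used gave 0.52 and 0.085. The germline RNA-binding genes Ddx4 and Dazl did not pass either. Ddx4, the germ cell helicase VASA, changed by 0.24 ± 0.095 over both treatments (adjusted p = 0.132). Dazl, a translational regulator of germ cells, had 0.052, -0.042 and -0.22 in Inha-/- cells after PMSG, against 1.75, 0.042 and 0.56 in wild-type cells. After hCG Dazl had -0.79, 1.004 and -0.44 in Inha-/- cells, against -0.87, 0.14 and -1.82 in wild-type cells. Its order of arrays matched no genotype, and its second probe set gave changes of 0.022 after PMSG and 1.17 after hCG where the one used gave -0.86 and 0.77.

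Both measured chromatin genes rose over both treatments. Dppa3, also called Stella, which protects maternal DNA methylation, had 1.56, 2.86 and 1.68 in Inha-/- cells after PMSG, against -0.73, -0.65 and -1.27 in wild-type cells. After hCG Dppa3 had 0.65, 3.28 and 2.96 in Inha-/- cells, against -1.34, -1.54 and -1.28 in wild-type cells. The genotypes were well apart in both treatments. Dppa3 rose by a log2 fold change of 2.92 ± 0.62 after PMSG (adjusted p = 0.0377) and of 3.68 ± 0.62 after hCG (adjusted p = 0.00449). H1f8, the oocyte linker histone, had 0.24, 2.24 and 0.15 in Inha-/- cells after PMSG, against -0.20, -0.47 and -0.19 in wild-type cells. After hCG H1f8 had 1.67, 3.48 and 2.10 in Inha-/- cells, against -0.15, -0.46 and -0.39 in wild-type cells. Only replicate 2 was high after PMSG, and all 3 Inha-/- arrays were high after hCG. H1f8 rose after hCG (2.75 ± 0.58, adjusted p = 0.0133) and not after PMSG (1.16 ± 0.58, adjusted p = 0.413).

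The genes of meiosis and maternal mRNA were Mos, Btg4 and Zar1, of which 2 rose. Btg4, which removes maternal messages by recruiting the deadenylase, had 0.12, 1.39 and 1.80 in Inha-/- cells after PMSG, against -0.17, -0.87 and -0.33 in wild-type cells. After hCG Btg4 had 0.20, 2.31 and 1.51 in Inha-/- cells, against -0.12, -1.97 and -2.22 in wild-type cells. Replicate 1 of both genotypes lay close to 0 in both treatments. Btg4 rose after hCG by 2.78 ± 0.69 on the log2 scale (adjusted p = 0.0279). Zar1, which binds and stores maternal messages, had 0.69, 1.14 and 0.64 in Inha-/- cells after PMSG, against -0.53, -0.53 and -1.42 in wild-type cells. After hCG Zar1 had 0.53, 2.78 and 1.42 in Inha-/- cells, against -0.74, -1.08 and -1.27 in wild-type cells. The groups were separate, and Zar1 rose after hCG by 2.60 ± 0.49 (adjusted p = 0.0079). Mos, the kinase that holds the egg in meiotic arrest, had the smallest change of the group, 1.16 ± 0.36 over both treatments (adjusted p = 0.0571). Its values were 0.90, 0.65 and 0.12 in Inha-/- cells after PMSG, against -0.11, -0.084 and -0.065 in wild-type cells. After hCG Mos had 0.028, 2.48 and 1.32 in Inha-/- cells, against -0.028, -0.59 and -0.57 in wild-type cells. No Inha-/- array was below a wild-type array.

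Among the remaining genes Bcl2l10 and Tcl1 rose. Bcl2l10, a BCL2 family member of the oocyte also called Diva, had 0.93, 1.59 and 1.70 in Inha-/- cells after PMSG, against -0.71, -1.55 and -2.20 in wild-type cells. After hCG Bcl2l10 had 0.71, 1.93 and 1.84 in Inha-/- cells, against -1.28, -1.89 and -3.15 in wild-type cells. Its gap between genotypes was wide in both treatments, and it had the smallest adjusted p of the list after PMSG (0.0237, limma), with a log2 fold change of 2.89 ± 0.55. Tcl1, a cofactor of AKT kinase, had 1.26, 2.70 and 0.93 in Inha-/- cells after PMSG, against -0.59, -0.70 and -0.68 in wild-type cells. After hCG Tcl1 had 0.46, 3.43 and 3.02 in Inha-/- cells, against -0.46, -0.81 and -1.09 in wild-type cells. The wild-type values after PMSG were nearly equal. Tcl1 rose after hCG by 3.08 ± 0.72 (adjusted p = 0.0206). Rfpl4, an oocyte RING finger protein, missed the threshold over both treatments with a change of 1.83 ± 0.55 (adjusted p = 0.0522), and replicate 1 of Inha-/- after hCG had -0.070 beside 3.42 and 2.86 on the other 2 arrays.

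Uchl1, a deubiquitinating enzyme of oocytes and neurons, did not follow the others. Its values were 0.061, -0.081 and -0.14 in Inha-/- cells after PMSG, against -0.66, -0.67 and -0.76 in wild-type cells. After hCG they were -0.061, 0.63 and 0.57 in Inha-/- cells, against 0.68, 0.71 and 0.83 in wild-type cells. All Inha-/- arrays were above wild type after PMSG and all were below it after hCG. The changes were 0.64 ± 0.16 after PMSG (SE, adjusted p = 0.0652) and -0.36 ± 0.16 after hCG (adjusted p = 0.208). In wild-type cells Uchl1 rose with hCG by 1.43 ± 0.16 on the log2 scale (adjusted p = 0.000566), and in Inha-/- cells the change with hCG was 0.43 ± 0.16 (adjusted p = 0.391). The difference between the hCG responses was -1.001 ± 0.23 and missed the threshold (adjusted p = 0.0841).

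Few of the oocyte genes passed the test for hCG against PMSG. In Inha-/- cells 0 of the 34 genes passed for hCG against PMSG in limma and 2 had an unadjusted p under 0.05, with 1.56% of all genes called. In wild-type cells Uchl1 was the only one called, where 13.9% of all genes were called, and 5 had an unadjusted p under 0.05. Changes of genes that did not pass included -2.16 ± 0.90 for Zp3 (SE, adjusted p = 0.169) and -1.24 ± 0.37 for Tle6 (adjusted p = 0.054) in wild-type cells. For H1f8 in Inha-/- cells the change was 1.54 ± 0.58 (adjusted p = 0.404). The difference between the hCG responses of the genotypes was called for 0 of the 34 genes, with 2 at an unadjusted p under 0.05 and 1.16% of all genes called. The median change with hCG was 0.41 in Inha-/- cells and -0.047 in wild-type cells. In Inha-/- cells it was 1.05 without replicate 1 after hCG, 0.016 without replicate 2 and 0.21 without replicate 3, and 0.27 and 0.26 without replicates 1 and 3 after PMSG. In wild-type cells it was -0.20 without replicate 1 after hCG, -0.34 with serial number as a covariate and 0.032 after quantile normalization, so its sign depended on the scaling. The contrasts after PMSG and after hCG have no array in common, whereas the contrasts of hCG within a genotype share arrays with both. Late serial numbers, described below, are mostly on hCG arrays, so hCG and serial number are partly confounded.

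The Inha-/- arrays also differed among themselves. The mean of the 34 genes was 0.65, 1.40 and 0.63 in Inha-/- cells after PMSG, against -0.23, -0.54 and -0.87 in wild-type cells. After hCG it was 0.28, 2.03 and 1.64 in Inha-/- cells, against -0.54, -0.97 and -1.08 in wild-type cells. Replicate 2 of Inha-/- after hCG was the highest array for 21 of the 34 genes, and replicate 1 of the same group was the lowest Inha-/- array for 17. The array serial numbers fall into 7 early and 5 late ones, and what they mark is not stated. Within the early arrays the median difference of the 34 genes, Inha-/- minus wild type, was 1.37 after PMSG (2 arrays against 3, 32 genes higher) and 0.27 after hCG (replicate 1 of each genotype, 29 genes higher). Within the late arrays after hCG it was 3.10 (2 arrays against 2, 33 genes higher). The median difference was positive in each of these sets. After hCG it was far smaller on the early pair, which is a single array of each genotype. The share of all genes that were higher was not counted in these sets. These within-serial values after hCG were added after the data had been seen and have no test. The range over the 6 Inha-/- arrays was wider than that over the 6 wild-type arrays for 27 of the 34 genes. For 8 genes the wild-type arrays spanned less than 0.2, and 5 of these (Bmp15, Nobox, Figla, Lhx8 and Astl) spanned over 0.5 in Inha-/- cells. The median correlation between 2 of the genes over the 12 arrays was 0.69, and Tcl1, Dppa3 and Zp1 were closest to the mean of the other genes (r = 0.982, 0.982 and 0.980), while Sohlh1 (-0.31), Uchl1 (0.13) and Dazl (0.20) were farthest from it.

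Markers of other cells moved on the same arrays. Over both treatments 1616 of all 18193 genes rose (8.88%) and 1298 fell. Of 11 measured theca and stroma genes 7 rose and 1 fell over both treatments, with Myh11 (3.29 ± 0.35, adjusted p = 0.000381), Col1a2 (3.03) and Acta2 (2.47) among those that rose. Cyp17a1, the androgen-making enzyme of theca cells, fell by 2.15 (adjusted p = 0.0134). The median of the 11 genes was 0.57, 1.80 and 1.64 in Inha-/- cells after PMSG, against -0.42, -0.70 and -0.25 in wild-type cells. After hCG it was 0.024, 2.49 and 1.79 in Inha-/- cells, against -1.27, -0.52 and -0.52 in wild-type cells. It was low on the same Inha-/- array as the oocyte genes, replicate 1 after hCG. The correlation of this median with the mean of the oocyte genes was 0.88 over the 6 Inha-/- arrays (0.65 over 4, without the 2 farthest) and -0.26 over the 6 wild-type arrays. Over the 6 Inha-/- arrays the medians of other lists gave 0.80 (leukocyte), 0.78 (endothelium), 0.62 (cumulus), 0.21 (granulosa), 0.10 (surface epithelium) and -0.48 (red blood cell). Without the 2 farthest arrays these were, in the same order, 0.75, 0.05, 0.65, 0.31, 0.60 and -0.50. Over the 6 wild-type arrays they were -0.70, -0.76, -0.61, 0.59, -0.57 and -0.17. A further list of oocyte genes, described below, gave 0.56 over the 6 Inha-/- arrays (-0.16 without the 2 farthest) and 0.45 over the 6 wild-type arrays. The part of theca, stroma or other cells in the oocyte result was not tested. Since the values are centred it cannot be said which markers are at 0.

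Where 1616 of all 18193 genes rose and 1298 fell over both treatments, 6 of the 7 surface epithelium genes fell and 0 rose (Krt18 fell by 1.86 and Krt8 fell by 1.57 on the log2 scale). Their median lay between -1.38 and -0.53 in Inha-/- cells after PMSG, against 0.037 to 0.73 in wild-type cells, and between -0.58 and -0.10 in Inha-/- cells after hCG, against 0.35 to 1.04 in wild-type cells. Of the 11 granulosa genes 3 rose and 1 fell (Wt1 fell by 2.71). After hCG 4 of the 11 rose, against 1456 of all 18193 genes, namely Inhbb (3.53), Inhba (1.72), Hsd17b1 (1.67) and Fst (1.51). Wt1 fell after hCG (-2.81) and was the only one of the 11 called after PMSG (-2.62). The median of the 11 genes on the arrays lay between -0.29 and 0.34 in Inha-/- cells after PMSG, against 0.36 to 0.61 in wild-type cells. After hCG it lay between -0.10 and -0.055 in Inha-/- cells, against -2.32 to -0.85 in wild-type cells. Of 14 cumulus genes, from the cells that cling to the oocyte, 5 rose and 0 fell, among them Ptgs2 (1.27), Tnfaip6 (1.28), Mvk (1.04) and Slc7a6 (0.51). A positive change over both treatments was seen for 8 of the 14, against 11643 of all 18193 genes, and the lowest change was -1.30. After PMSG 8 also had a positive change, against 11807 of all genes, while Kitl (-1.82), Amh (-1.67) and Slc38a3 (-1.55) were lower without being called. The genotype change of Ptgs2 was -0.091 after PMSG and 2.64 after hCG, and Ptgs2 itself rose with hCG in wild-type cells by 8.06. The median of the 14 genes lay between -0.49 and -0.31 in Inha-/- cells after PMSG, against -0.62 to -0.28 in wild-type cells. After hCG it lay between 0.086 and 0.74 in Inha-/- cells, against 0.27 to 0.31 in wild-type cells. The leukocyte median reached 0.88 and 0.82 on replicates 2 and 3 of Inha-/- after hCG. No leukocyte (11), endothelial (8) or red blood cell gene (3) was called over both treatments, with 3, 2 and 0 at an unadjusted p under 0.05 (limma). The mean of the 18S control probe sets had a correlation with the oocyte mean of 0.79 over the 6 Inha-/- arrays and -0.40 over the 6 wild-type arrays. Whether these differences contribute to the oocyte result was not tested.

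**Figure D4:**
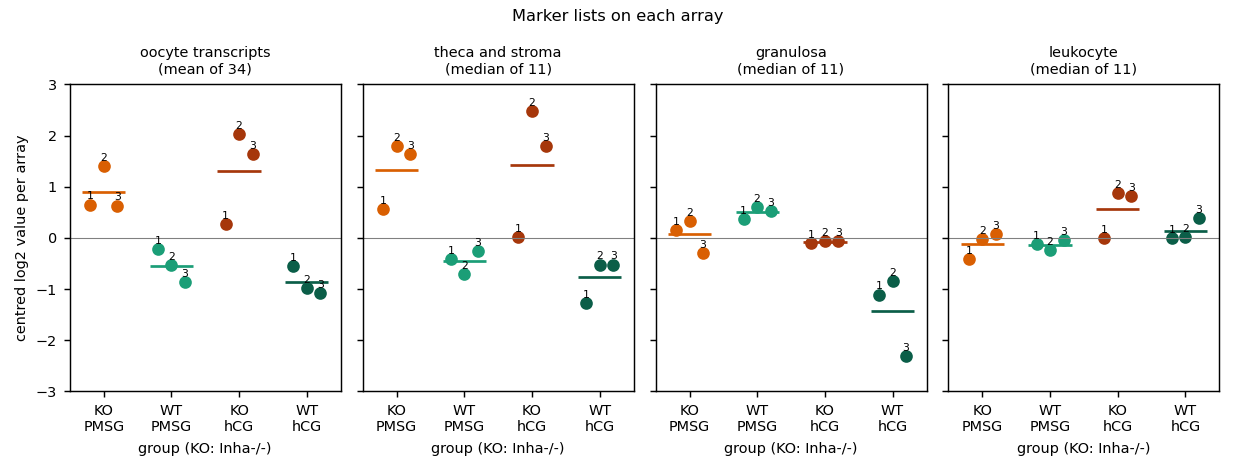
Marker lists on each array by group, in centred log2 units, with a point for each of the 3 arrays of a group, numbered by replicate, and a line at their mean. The oocyte and the theca and stroma values are high in the Inha-/- groups, and replicate 1 of Inha-/- after hCG is the low array of its group in both.

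A further list of oocyte genes, of which 52 were measured, had 9 that rose and 1 that fell over both treatments. Of all genes 8.88% rose. The median log2 fold change of the 52 genes was 0.27. The 8 with the smallest p were Fbxw24 (3.82 ± 0.44, adjusted p = 0.000612), Omt2b (3.14), Khdc1b (3.41), Tcl1b3 (-0.56), Fbxw18 (2.21), Omt2a (1.33), Wee2 (1.34) and Oas1e (2.01). Fbxw24 had 1.90, 2.64 and 2.08 in Inha-/- cells after PMSG, against -1.11, -1.49 and -1.13 in wild-type cells. After hCG it had 1.10, 3.93 and 3.63 in Inha-/- cells, against -1.10, -1.16 and -1.67 in wild-type cells. It was separate by genotype in both treatments and low on the same Inha-/- array after hCG as most of the genes above. Of the 18159 other genes, the 12 whose values were most like the mean of the 34 over the 12 arrays were E330034G19Rik (r = 0.979), Pltp (0.974), Fbxw24 (0.974), Elobl (0.973), Fam3c (0.968), C86187 (0.966), Omt2b (0.965), Khdc1b (0.965), Thbs2 (0.964), Dppa5a (0.961), Rhpn2 (0.959) and Pkmyt1 (0.954). Of these 3 are on the further list of oocyte genes. Lower in the ranking that list had Oas1e at 14, Wee2 at 29 and Fbxw18 at 34, and the theca and stroma list had Acta2 at 21, Myh11 at 22 and Col1a1 at 57. Over the 6 Inha-/- arrays alone r was 0.98 for E330034G19Rik, 0.97 for Elobl and 0.88 for Pltp, and over the 6 wild-type arrays it was 0.85, 0.86 and 0.90. Genotype, treatment and array quality are shared by the points of these correlations, which are given as descriptions.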

How the data were processed

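Granulosa cell RNA was hybridised to 12 one-colour Affymetrix arrays, 3 in each of 4 groups set from titles and characteristics. The deposited log2 values were made with GCRMA, per the submitters' processing notes, which name no version. They are centred on each probe set's median over the 12 arrays (largest absolute median 5e-07), which the labels do not state, and the widest probe set spans 13.3 units, more than the 11.1 a 16-bit scanner allows in natural log units. Depth is not defined for arrays, and their number limits the precision.

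The table holds 45101 probe sets; 34945 name a single gene, 932 several and 9160 none, and 64 controls were left out. A gene was read from its probe set of largest SD, which favours probe sets that respond. A group-means model was fitted to 18193 genes with limma 3.58.1 in R 4.3.3, without a filter, with Benjamini-Hochberg adjustment over all genes and a call at an adjusted p under 0.05. The method was tested on simulated data. The members and lists were chosen with earlier results of these data known. Per-array values are given for the zona genes, Gdf9, Bmp15, Oosp1, Kit, each gene called, and the largest and smallest changes of each role. Further genes were named by rule: the 8 smallest p of the further oocyte list, up to 4 called genes of other lists and the 12 genes most like the members' mean. Alternatives were leaving out each array, blocks, array weights, quantile normalization, an SD filter, the mean of a gene's probe sets and fewer groups.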

Additional observations from a re-analysis of the deposited data

Results flagged for a closer look

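Uchl1 differed in direction between the treatments. Every Inha-/- array was above every wild-type array after PMSG, and every Inha-/- array was below every wild-type array after hCG. The difference between the hCG responses, Inha-/- minus wild type, was -1.001 on the log2 scale with an adjusted p of 0.0841 (limma, Benjamini-Hochberg), so the opposite directions are not established by the test.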

How the results depend on the processing

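Counts are of the 34 genes called. No count reversed. The 17 genes that rose over both treatments kept their call in all 19 alternatives, except Tle6, lost without replicate 3 of wild type after hCG. After PMSG the count of 4 became 14 with the number in the array names as a random block, 1 with early or late serial number as a covariate, 19 with array weights, 7 with quantile normalization, 8 with the SD filter, 7 with the mean of all probe sets and 0 with the 7 early arrays alone. After hCG the count of 17 became 10 with the random block, 11 with quantile normalization and 10 with only the groups of the contrast. Array weights gave 28 over both treatments, 13 for hCG in Inha-/- cells, 5 for hCG in wild type and 15 for the interaction. For hCG in wild type the replicate block, SD filter, mean of probe sets and only the groups of the contrast each gave 2. Leaving out 1 array gave 0 to 10 after PMSG, 10 to 23 after hCG, 16 to 24 over both, 0 to 1 for the interaction, 0 to 2 for hCG in Inha-/- cells and 1 to 2 in wild type. The mean of the 34 genes then lay between 0.64 and 1.03 in Inha-/- and -0.70 and -0.38 in wild type after PMSG, and between 0.96 and 1.83 in Inha-/- and -1.03 and -0.76 in wild type after hCG. The median in place of the mean gave -0.55, against -0.87, in wild type after hCG, and -0.31, against -0.54, in wild type after PMSG. The cause of these changes was not tested. Over all genes, array weights called 4199 after PMSG, 4987 after hCG, 5882 over both, 4112 for hCG in Inha-/- cells, 5840 in wild type and 3329 for the interaction, against 638, 2485, 2914, 283, 2531 and 211 as reported. The random block called 1479 after PMSG, 1361 after hCG and 1210 for hCG in wild type, only the groups of the contrast called 304 after PMSG and 130 for hCG in Inha-/- cells, and the early arrays called 72 after PMSG. Leaving out 1 array called as few as 300 after PMSG, 1534 after hCG, 178 for hCG in Inha-/- cells and 1422 in wild type, and 110 to 509 for the interaction. With the replicate number as a block 3 genes were called after PMSG, 14 after hCG and 18 over both. Deviations from the group means had correlations of -0.16 to 0.29 between arrays of different groups with the same replicate number. Between arrays with different replicate numbers they were -0.22 to 0.17. The highest values were thus between same-numbered arrays, and whether these numbers pair the samples was not tested. Array names carry the same number in 3 pairs: the PMSG arrays of Inha-/- and wild type with replicate number 1, those with replicate number 2, and a pair of wild-type hCG arrays (2 and 3). The random block estimated a correlation of 0.58 between arrays that share such a number, whereas the main fit takes all arrays as independent. The 2 pairs that join the genotypes gave values only, with 31 and 30 of the 34 genes higher in Inha-/- cells. For these pairs the share over all genes was not counted. Centred values carry no signal over background, so which genes lie near background is not known.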
